A study of Homo sapiens and Mus musculus with 21 samples.

Results

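Human transcript levels of SW620 tumours in which Wnt signalling was disrupted at the cell surface (LRP6KO) were set directly against those of SW620 tumours in which it was disrupted in the nucleus (dnLEF1). The comparison took the 3 LRP6KO and the 3 dnLEF1 libraries named as such in the human expression table, 6 of the 21 samples of the series. The 3 Cas9 and the 3 Mock libraries, their controls, are shown beside the genes whose levels are described. SW620 is a human colon carcinoma line derived from a lymph node metastasis. LRP6KO cells were transfected with a CRISPR construct against LRP6, selected with puromycin and sorted for low LRP6 protein; they are not stated to be 1 clone. dnLEF1 cells carried a dominant negative form of LEF1 delivered by lentivirus. Cas9 cells went through a mock CRISPR/Cas9 transfection and a sort, and Mock cells through a mock lentiviral transduction. All 4 kinds of cell were injected, 500000 at a time, into the wall of the caecum of immunodeficient NSG mice, and tumours were taken after 28 days. Every LRP6KO to dnLEF1 difference therefore also contains the difference between transfection with sorting and lentiviral delivery. The replicates are called biological, but no label ties a library to an animal of its own, so p-values measure the spread between these libraries.

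In the canonical pathway, Wnt ligands bind a Frizzled receptor together with LRP5 or LRP6, the complex that degrades beta-catenin is held off, and beta-catenin enters the nucleus to activate genes through TCF and LEF factors. In most colorectal cancers the degradation complex is already defective through loss of APC, and the pathway is active without ligand. A dominant negative LEF1 lacks the part that binds beta-catenin and occupies target genes without activating them, whereas loss of LRP6 acts at the receptor, upstream of that complex.

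Expression was given as TPM, which add up to 1000000 in every library and keep no record of depth. The carcinoma markers, mainly the keratins KRT8, KRT18 and KRT19, summed to 12026 to 13045 TPM in LRP6KO, 8740 to 10785 TPM in dnLEF1, 11034 to 14335 TPM in Cas9 and 15153 to 17070 TPM in Mock libraries, and KRT20 did not pass the filter on low values. Markers of stroma, which a carcinoma line should lack, were also read in the human table, where they do not measure the stroma of the mouse host. The 23 markers of stroma summed to 44.4 to 96.1 TPM in LRP6KO, 34.06 to 43.2 TPM in dnLEF1, 34.07 to 56 TPM in Cas9 and 42.3 to 56.5 TPM in Mock libraries. Of these markers 12 did not pass the filter, among them PTPRC, CD3E, KDR and COL3A1, none of which exceeded 0.74 TPM in any of the 12 libraries. LRP6KO replicate 1 stood apart: it had 34114 genes above 0, against 25515 to 29691 in the other 11 libraries, and the highest stroma marker sum. Its score on the first principal component (21.7% of the variance) was 75.1, against -37.7 to 36.3 in the others. Results were therefore also computed without it.

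The targets themselves were read first. LRP6 (chr12:12116025-12267012, - strand) had 21.1, 18.8 and 17.4 TPM in LRP6KO tumours, against 22.9, 19.1 and 15.1 TPM in dnLEF1 tumours. The controls had 10.9, 17.8 and 17.5 TPM in Cas9 and 12.98, 20.4 and 14.4 TPM in Mock tumours. The 4 groups overlapped, and LRP6KO and dnLEF1 differed by 0.02 (SE 0.22, limma adjusted p 0.981) on the log2(TPM + 1) scale, which is used for all differences here. A small CRISPR lesion can leave the amount of transcript as it was, so a gene-level value does not check this knockout. LEF1 (chr4:108047545-108168956, - strand) had 1.6, 0.76 and 1.18 TPM in LRP6KO tumours, against 18.2, 22.5 and 23.98 TPM in dnLEF1 tumours. Cas9 tumours had 2.57, 2.26 and 2.3 TPM and Mock tumours 0.3, 0.8 and 0.59 TPM. All 3 dnLEF1 libraries lay far above the other 9, and the difference, LRP6KO minus dnLEF1, was -3.38 (SE 0.22, limma adjusted p 5.96e-05). Transcript from the lentiviral LEF1 and from the cell's own gene cannot be told apart in a gene-level table.

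Across 19196 genes that reached 1 TPM in no fewer than 3 of the 12 SW620 libraries, 110 genes, or 0.573% of those tested, differed between LRP6KO and dnLEF1 tumours at a limma adjusted p under 0.05. Of these, 83 (0.432%) were higher in LRP6KO, by 0.38 to 2.15 log2 units (median 1.01), and 27 (0.141%) were lower, with differences between -0.49 and -3.54 (median -1.34). The median of all genes tested was itself 0.153. When each library was rescaled to a common median ratio, that median became 0.02 and 74 genes were called, 39 higher and 35 lower, 65 of them among the 110. The count also depended on single libraries. It was 39, 47 and 69 without LRP6KO replicate 1, 2 and 3, and 61, 33 and 44 without dnLEF1 replicate 1, 2 and 3. It was 71 without Cas9 replicate 3, which enters through the shared estimate of spread. Without LRP6KO replicate 1 the split was 20 higher and 19 lower. With each of the 6 LRP6KO and dnLEF1 libraries left out in turn, 25 of the 110 genes were called every time, 16 higher and 9 lower in LRP6KO.

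**Figure D1:**
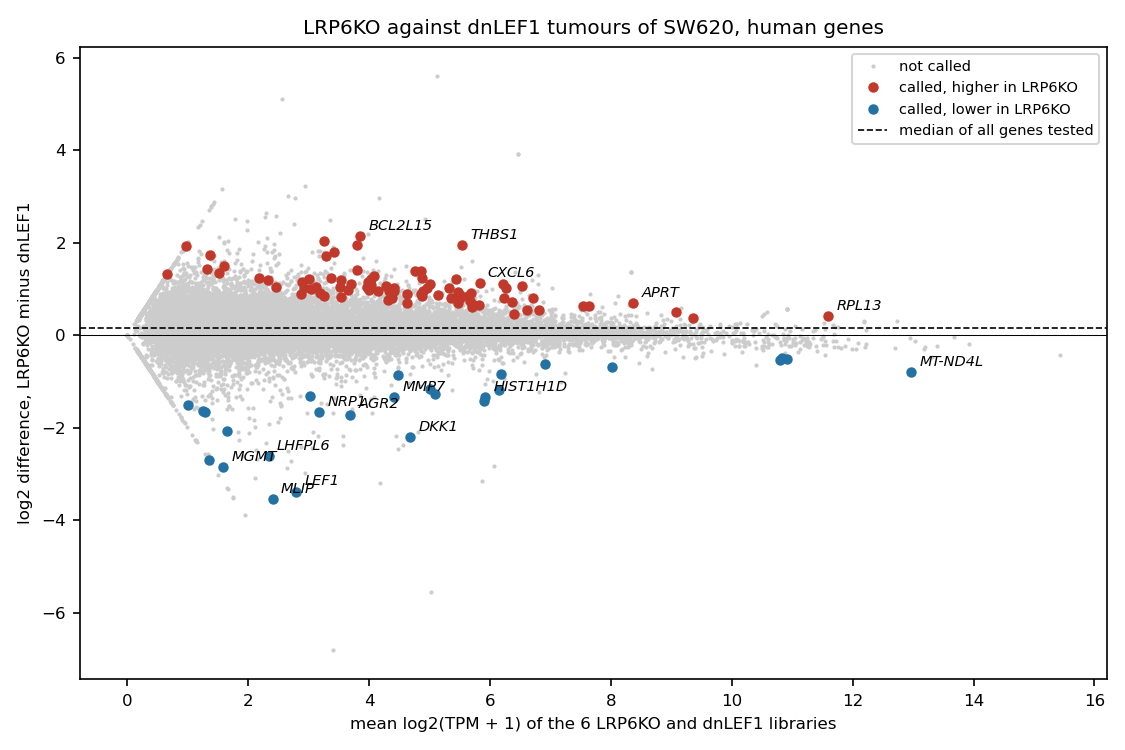
Each point is 1 of the 19196 human genes tested, with its mean level over the 6 LRP6KO and dnLEF1 libraries as log2(TPM + 1) on the horizontal axis and its log2 difference, LRP6KO minus dnLEF1, on the vertical axis. Red points are the 83 genes called higher in LRP6KO, blue points the 27 called lower, and the dashed line marks the median of all genes at 0.153; the called differences reach down to -3.54 and up to 2.15.

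The genes lower in LRP6KO than in dnLEF1 included a secreted Wnt antagonist, a matrix protease and a DNA repair enzyme. The sequences before the starts of DKK1 and MMP7 are shown because both hold words that TCF and LEF factors are known to bind, and those of MGMT and BCL2L15 because these genes had large differences and hold no such word. The words searched, on both strands, were AACAAAG, then ATCAAAG, then TACAAAG, and last TTCAAAG, within 250 bases before the RefSeq start (GRCh38.p14). Each sequence runs 5′ to 3′ along the gene's own strand, stops before the annotated transcript, and has its words in capitals.
DKK1, chr10:52314031-52314280, + strand: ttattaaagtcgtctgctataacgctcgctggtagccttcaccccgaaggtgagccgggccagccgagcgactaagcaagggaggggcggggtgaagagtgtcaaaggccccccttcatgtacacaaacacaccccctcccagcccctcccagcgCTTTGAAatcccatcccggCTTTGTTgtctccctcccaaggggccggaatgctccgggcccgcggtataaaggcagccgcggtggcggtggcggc
MMP7, chr11:102530754-102530997, - strand: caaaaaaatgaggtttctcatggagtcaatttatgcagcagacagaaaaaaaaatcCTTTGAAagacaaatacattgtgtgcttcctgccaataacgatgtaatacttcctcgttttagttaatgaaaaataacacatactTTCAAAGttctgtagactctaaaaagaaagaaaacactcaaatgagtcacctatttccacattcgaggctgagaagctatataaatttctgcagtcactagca
MGMT, chr10:129466991-129467183, + strand: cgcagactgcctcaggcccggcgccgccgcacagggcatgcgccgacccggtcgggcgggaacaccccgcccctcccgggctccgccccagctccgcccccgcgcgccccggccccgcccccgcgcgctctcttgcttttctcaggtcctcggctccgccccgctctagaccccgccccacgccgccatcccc
BCL2L15, chr1:113887582-113887831, - strand: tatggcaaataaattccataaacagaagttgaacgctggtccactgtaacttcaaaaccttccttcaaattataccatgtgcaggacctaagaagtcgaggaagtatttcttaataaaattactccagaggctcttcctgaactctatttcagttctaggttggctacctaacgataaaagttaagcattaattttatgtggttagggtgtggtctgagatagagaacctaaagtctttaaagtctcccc
Both words of the DKK1 promoter are read from the opposite strand, CTTTGAA first and CTTTGTT closer to the start. The MMP7 promoter has CTTTGAA and, closer to the start, TTCAAAG; no word overlaps another. Of the genes called lower in LRP6KO, 4 of the 17 with a RefSeq promoter entry held a word (23.5%), which were DKK1, MMP7, HIST1H1D and TNFSF4. Of the genes called higher, 6 of 57 did (10.5%), which were ANXA1 with 2 words and DPEP1, EVA1A, SIT1, VGLL4 and KRTAP3-1 with 1 each, and of all 27305 promoters 3297 did (12.1%). A match describes letters in a short window and does not show a bound site.

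DKK1 (chr10:52314296-52318042, + strand), which binds LRP5 and LRP6 and blocks the receptor, had 10.8, 9.23 and 13.4 TPM in LRP6KO tumours, against 53.1, 59.2 and 50.3 TPM in dnLEF1 tumours. Beside these stood 24.5, 30.5 and 27.1 TPM in Cas9 and 39.8, 19.9 and 28.1 TPM in Mock tumours. The LRP6KO libraries all lay below, and the dnLEF1 libraries all above, the 6 control libraries. The difference between LRP6KO and dnLEF1 was -2.2 (SE 0.22, limma adjusted p 0.000821), and it was called with any of the 6 libraries left out (highest adjusted p 0.00781). Each difference from the own control missed the threshold, at -1.24 for LRP6KO minus Cas9 (limma adjusted p 0.155) and 0.92 for dnLEF1 minus Mock (limma adjusted p 0.0797). The difference between these changes was called, at -2.15 (SE 0.3, limma adjusted p 0.0129). MMP7 (chr11:102520508-102530753, - strand), the matrix protease matrilysin and a known target of beta-catenin in intestinal tumours, had 13.4, 10.3 and 13.8 TPM in LRP6KO tumours, against 27.8, 38.1 and 33.97 TPM in dnLEF1 tumours. In Cas9 tumours it had 20.01, 13.3 and 22.6 TPM, and in Mock tumours 20.01, 15.5 and 18.5 TPM. LRP6KO and dnLEF1 did not overlap, while LRP6KO and Cas9 did, and the difference was -1.34 (SE 0.2, limma adjusted p 0.0139). This call was lost without LRP6KO replicate 2 or dnLEF1 replicate 2 or 3 (highest adjusted p 0.077).

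MGMT (chr10:129467184-129768007, + strand), the enzyme that removes alkyl groups from guanine and whose CpG-rich promoter is often methylated in colorectal cancer, had 0.25, 0.12 and 0 TPM in LRP6KO tumours, against 7.85, 6.55 and 6.82 TPM in dnLEF1 tumours. Levels were 0, 0.26 and 0.17 TPM in Cas9 and 0.13, 0 and 0.83 TPM in Mock tumours. No library outside dnLEF1 reached 1 TPM, so MGMT passed the filter on low values only through the dnLEF1 libraries. The difference of MGMT was -2.85 (SE 0.27, limma adjusted p 0.000755). The full 250 bases before its RefSeq start held 36 CpG pairs, more than 95.3% of all promoters in the table. LHFPL6 (chr13:39209116-39603528, - strand), a tetraspan membrane protein, had 1.41, 1.02 and 0.75 TPM in LRP6KO tumours, against 9.95, 12.7 and 12.2 TPM in dnLEF1 tumours. The controls had 1.35, 1.79 and 1.24 TPM in Cas9 and 1.4, 0.79 and 1.5 TPM in Mock tumours. As with MGMT, LRP6KO, Cas9 and Mock libraries overlapped at the low level, and the difference was -2.62 (SE 0.22, limma adjusted p 0.000546). MLIP (chr6:53929982-54266280, + strand), a protein that interacts with nuclear lamins, had 0.78, 0.6 and 0.32 TPM in LRP6KO tumours, against 19.6, 17.3 and 14.6 TPM in dnLEF1 tumours. Cas9 tumours had 1.71, 4.76 and 2.3 TPM and Mock tumours 4.76, 1.99 and 1.58 TPM. As for DKK1, the LRP6KO libraries lay below and the dnLEF1 libraries above all controls. Its difference of -3.54 (SE 0.34, limma adjusted p 0.000755) was the largest of the 110. NRP1, a co-receptor for semaphorins and VEGF, averaged 4.11 ± 0.92 TPM in LRP6KO and 15.1 ± 1.704 TPM in dnLEF1 tumours, beside 2.69 ± 0.401 TPM in Cas9 and 3.07 ± 0.73 TPM in Mock tumours (SD, n = 3 each), a difference of -1.67 (SE 0.2, limma adjusted p 0.0045). All 4 genes kept their call without any 1 of the 6 libraries.

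Other genes on that side lost their call more readily. AGR2, a protein folding enzyme of mucus-secreting cells, averaged 6.35 ± 2.12 TPM in LRP6KO and 22.8 ± 5.34 TPM in dnLEF1 tumours, beside 3.29 ± 1.12 TPM in Cas9 and 5.97 ± 0.899 TPM in Mock tumours (SD, n = 3 each). Its difference of -1.72 (SE 0.27, limma adjusted p 0.0142) lost its call without dnLEF1 replicate 2 or 3 (highest adjusted p 0.077). The GABA receptor subunit GABRA2 (-2.07, limma adjusted p 0.0218) and the granin SCG2 (-1.32, limma adjusted p 0.0266) each lost theirs without 5 of the 6 libraries. GABRA2 averaged 0.67 ± 0.85 TPM in LRP6KO and 5.497 ± 0.74 TPM in dnLEF1 tumours, beside 0.403 ± 0.34 TPM in Cas9 and 0.91 ± 0.45 TPM in Mock tumours (SD, n = 3 each). SCG2 averaged 4.25 ± 1.22 TPM in LRP6KO and 11.98 ± 1.94 TPM in dnLEF1 tumours, beside 3.97 ± 0.85 TPM in Cas9 and 3.29 ± 0.76 TPM in Mock tumours (SD, n = 3 each). In both genes dnLEF1 had the highest mean of the 4 groups. EREG, a ligand of the EGF receptor, had 18.2, 12.6 and 16.3 TPM in LRP6KO tumours, against 30.6, 28.98 and 27.8 TPM in dnLEF1 tumours. Beside these stood 21.4, 23.4 and 21.8 TPM in Cas9 and 27.9, 23.5 and 25.96 TPM in Mock tumours. Here the LRP6KO libraries were the ones apart, below all other 9. The difference of -0.87 (SE 0.14, limma adjusted p 0.0175) was lost without LRP6KO replicate 2 or any 1 dnLEF1 library (highest adjusted p 0.077).

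Histone genes were called on both sides. The linker histone gene HIST1H1D (chr6:26234268-26234933, - strand) had 42.4, 40.05 and 30.3 TPM in LRP6KO tumours, against 110.95, 98.9 and 78.9 TPM in dnLEF1 tumours. In Cas9 tumours it had 40.5, 44.98 and 45.1 TPM, and in Mock tumours 114.2, 117.4 and 87.8 TPM. The values split by delivery arm, with LRP6KO and Cas9 low and dnLEF1 and Mock high. The control arms differed by -1.26 (Cas9 minus Mock, limma adjusted p 0.039) and the disrupted ones by -1.33 (limma adjusted p 0.0045), so that the difference of changes was -0.07 (limma adjusted p 0.915). HIST1H1E (-1.18), HIST1H2AH (-1.17) and HIST2H2AC (-1.42) were also lower in LRP6KO, with limma adjusted p of 0.00695, 0.00551 and 0.0429. HIST1H1E averaged 46.4 ± 5.53 TPM in LRP6KO and 106.6 ± 17.4 TPM in dnLEF1 tumours, beside 66.7 ± 12.1 TPM in Cas9 and 83.6 ± 7.896 TPM in Mock tumours (SD, n = 3 each). HIST1H2AH averaged 20.6 ± 2.31 TPM in LRP6KO and 48.02 ± 9.504 TPM in dnLEF1 tumours, beside 30.5 ± 3.08 TPM in Cas9 and 38.1 ± 2.53 TPM in Mock tumours (SD, n = 3 each). HIST2H2AC averaged 36.3 ± 10.01 TPM in LRP6KO and 102.2 ± 42.3 TPM in dnLEF1 tumours, beside 66.8 ± 2.499 TPM in Cas9 and 88.8 ± 14.8 TPM in Mock tumours (SD, n = 3 each). In each of these the mean was lowest in LRP6KO and highest in dnLEF1, with Mock above Cas9. HIST2H2AA3 was higher (1.23, limma adjusted p 0.0175), a call lost after rescaling and without 5 of the 6 libraries, as HIST2H2AC was without 5 of the 6. HIST2H2AA3 averaged 65.8 ± 7.88 TPM in LRP6KO and 27.7 ± 4.15 TPM in dnLEF1 tumours, beside 59.3 ± 2.498 TPM in Cas9 and 62.8 ± 18.02 TPM in Mock tumours (SD, n = 3 each). Histone genes have near-identical copies, and how reads were divided among them is not given in the sources used here, so values of single members are uncertain.

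Of the genes higher in LRP6KO than in dnLEF1, BCL2L15 (chr1:113878168-113887547, - strand), a member of the BCL2 family of cell death regulators, had the largest difference. It had 39.9, 24.7 and 25.7 TPM in LRP6KO tumours, against 7.33, 4.6 and 5.86 TPM in dnLEF1 tumours. Levels were 23.1, 21.3 and 21.8 TPM in Cas9 and 20.1, 22.1 and 19.6 TPM in Mock tumours. The dnLEF1 libraries lay well below all others and the LRP6KO libraries just above the controls, and the difference was 2.15 (SE 0.19, limma adjusted p 0.000546). From Mock, dnLEF1 fell by 1.66 (limma adjusted p 0.00287), whereas LRP6KO minus Cas9 was 0.4, which was not called (limma adjusted p 0.881). CYTL1 (chr4:5014586-5019472, - strand), a small secreted protein, had 26.6, 26.7 and 26.1 TPM in LRP6KO tumours, against 4.87, 6.23 and 7.23 TPM in dnLEF1 tumours. The controls had 15.2, 18.5 and 16.1 TPM in Cas9 and 13.4, 10.96 and 17 TPM in Mock tumours. The controls lay between the disruptions without overlapping either, and the difference was 1.96 (SE 0.18, limma adjusted p 0.000546).

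A receptor called higher in LRP6KO is described with its ligand, whose lower call was lost more readily when libraries were left out. TNFRSF4 (chr1:1211326-1214138, - strand), a receptor of the tumour necrosis factor family best known from activated T cells, had 19.4, 22.04 and 14.6 TPM in LRP6KO tumours, against 5.18, 3.97 and 2.37 TPM in dnLEF1 tumours. Cas9 tumours had 9.29, 10.97 and 8.83 TPM and Mock tumours 7.39, 6.7 and 8.5 TPM. All LRP6KO libraries were above and all dnLEF1 libraries below the controls, with a difference of 2.05 (SE 0.23, limma adjusted p 0.00236). Its ligand TNFSF4, chosen for mention after its values were seen, had 0.36, 0.3 and 0.45 TPM in LRP6KO tumours, against 2.61, 3.55 and 3.98 TPM in dnLEF1 tumours. Beside these stood 0.28, 0.31 and 0.45 TPM in Cas9 and 0.32, 0.58 and 0.06 TPM in Mock tumours. Among the 12 libraries it was above 1 TPM in the 3 dnLEF1 libraries alone, so it passed the filter on low values only through them. The difference of -1.67 (SE 0.25, limma adjusted p 0.0134) was lost without LRP6KO replicate 2 or dnLEF1 replicate 2 or 3 (highest adjusted p 0.077) and with a pseudocount of 0.1. The leukocyte markers PTPRC and CD3E had at most 0.48 and 0.51 TPM in an LRP6KO library, against at most 0.11 and 0 TPM in a dnLEF1 library. Neither passed the filter on low values, so neither difference was tested. Of other genes known from lymphocytes, CD4, FASLG, PTPN22, SIT1 and TRBC2 were called higher in LRP6KO and KLRC2 lower. Each of these lost its call without at least 5 of the 6 libraries. They were picked from the called genes after these were seen, not drawn from a list of lymphocyte genes. No share of such genes can therefore be set beside the 0.432% called higher and 0.141% called lower of all genes tested. Whether lymphocyte genes differ as a group was not tested.

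THBS1 (chr15:39581079-39599466, + strand), the matrix glycoprotein thrombospondin, had 77.3, 100.3 and 95.7 TPM in LRP6KO tumours, against 18.8, 20.99 and 29.3 TPM in dnLEF1 tumours. In Cas9 tumours it had 89.4, 81.8 and 75.6 TPM, and in Mock tumours 53.2, 31.7 and 66.05 TPM. LRP6KO and Cas9 overlapped and both lay above every dnLEF1 and Mock library, and the difference was 1.96 (SE 0.24, limma adjusted p 0.0045); the difference of changes was not called (1.2, limma adjusted p 0.173). ITPR2 (chr12:26336515-26833198, - strand), a calcium release channel of the endoplasmic reticulum, had 25.6, 18 and 14.6 TPM in LRP6KO tumours, against 5.2, 3.76 and 5.41 TPM in dnLEF1 tumours. Levels were 25.3, 27.8 and 25.2 TPM in Cas9 and 41.4, 37.04 and 38.96 TPM in Mock tumours. LRP6KO and Cas9 overlapped and Mock was the highest group. The direct difference was 1.79 (SE 0.19, limma adjusted p 0.00142) and the difference of changes 2.36 (SE 0.27, limma adjusted p 0.00666). TMEM45B, a transmembrane protein, averaged 44 ± 1.58 TPM in LRP6KO and 18.2 ± 2.001 TPM in dnLEF1 tumours, beside 59.1 ± 4.05 TPM in Cas9 and 42.97 ± 2.67 TPM in Mock tumours (SD, n = 3 each), with a difference of 1.23 (SE 0.11, limma adjusted p 0.000546). KRTAP3-2, a hair keratin-associated protein, averaged 46.01 ± 4.21 TPM in LRP6KO and 16.9 ± 2.18 TPM in dnLEF1 tumours, beside 35.1 ± 0.28 TPM in Cas9 and 34.97 ± 5.87 TPM in Mock tumours (SD, n = 3 each), with a difference of 1.4 (SE 0.14, limma adjusted p 0.000913). Its close paralogs KRTAP3-1 (1.02) and KRTAP3-3 (1.23) were called in the same direction, with limma adjusted p of 0.0142 and 0.0142, but reads may be shared between these genes and each of the pair lost its call without 3 of the 6 libraries. KRTAP3-1 averaged 110.6 ± 21.7 TPM in LRP6KO and 53.7 ± 7.34 TPM in dnLEF1 tumours, beside 112.6 ± 15.6 TPM in Cas9 and 81.98 ± 3.499 TPM in Mock tumours (SD, n = 3 each). KRTAP3-3 averaged 14.96 ± 2.99 TPM in LRP6KO and 5.81 ± 1.25 TPM in dnLEF1 tumours, beside 12.7 ± 0.99 TPM in Cas9 and 9.72 ± 1.58 TPM in Mock tumours (SD, n = 3 each).

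The chemokine CXCL6 and the glucose transporter SLC2A3 were higher in LRP6KO, with dnLEF1 the lowest of the 4 groups. CXCL6 averaged 83.8 ± 13.7 TPM in LRP6KO and 37.7 ± 5.78 TPM in dnLEF1 tumours, beside 86.9 ± 3.04 TPM in Cas9 and 107.98 ± 8.698 TPM in Mock tumours (SD, n = 3 each), with a difference of 1.13 (SE 0.14, limma adjusted p 0.0045). SLC2A3 averaged 110.1 ± 21.02 TPM in LRP6KO and 49.9 ± 4.72 TPM in dnLEF1 tumours, beside 86.5 ± 18.1 TPM in Cas9 and 112.7 ± 7.57 TPM in Mock tumours (SD, n = 3 each), with a difference of 1.11 (SE 0.16, limma adjusted p 0.0121), and lost its call without dnLEF1 replicate 2 or 3 (highest adjusted p 0.062). CAB39L (1.72, limma adjusted p 0.019), a relative of the LKB1 scaffold, lost its call without any 1 of the 6 libraries. CAB39L averaged 17.01 ± 3.22 TPM in LRP6KO and 4.49 ± 1.07 TPM in dnLEF1 tumours, beside 11.1 ± 1.82 TPM in Cas9 and 11.7 ± 5.801 TPM in Mock tumours (SD, n = 3 each). HENMT1 (1.24, limma adjusted p 0.0266), a methyltransferase of small RNAs, lost its call without 5 of the 6 and after rescaling, and the secreted glycoprotein gene ADAMTSL2 (1.41, limma adjusted p 0.012) without LRP6KO replicate 1 or dnLEF1 replicate 3. HENMT1 averaged 5.99 ± 0.75 TPM in LRP6KO and 1.97 ± 0.46 TPM in dnLEF1 tumours, beside 3.28 ± 0.28 TPM in Cas9 and 3.72 ± 1.12 TPM in Mock tumours (SD, n = 3 each). ADAMTSL2 averaged 21.9 ± 2.69 TPM in LRP6KO and 7.74 ± 2.03 TPM in dnLEF1 tumours, beside 22.7 ± 4.03 TPM in Cas9 and 21.2 ± 4.399 TPM in Mock tumours (SD, n = 3 each). In these 3 genes dnLEF1 had the lowest mean of the 4 groups. When the SW480 libraries also entered the fit, 18 of the 29 called genes chosen by the naming rules stayed called. EREG, THBS1, SLC2A3, HIST1H1D, HIST1H1E and HIST1H2AH were among the described genes that were no longer called in that fit. LEF1, DKK1, MGMT, LHFPL6, MLIP, CYTL1, TMEM45B and KRTAP3-2 were called in each of the 13 alternatives computed per gene.

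**Figure D2:**
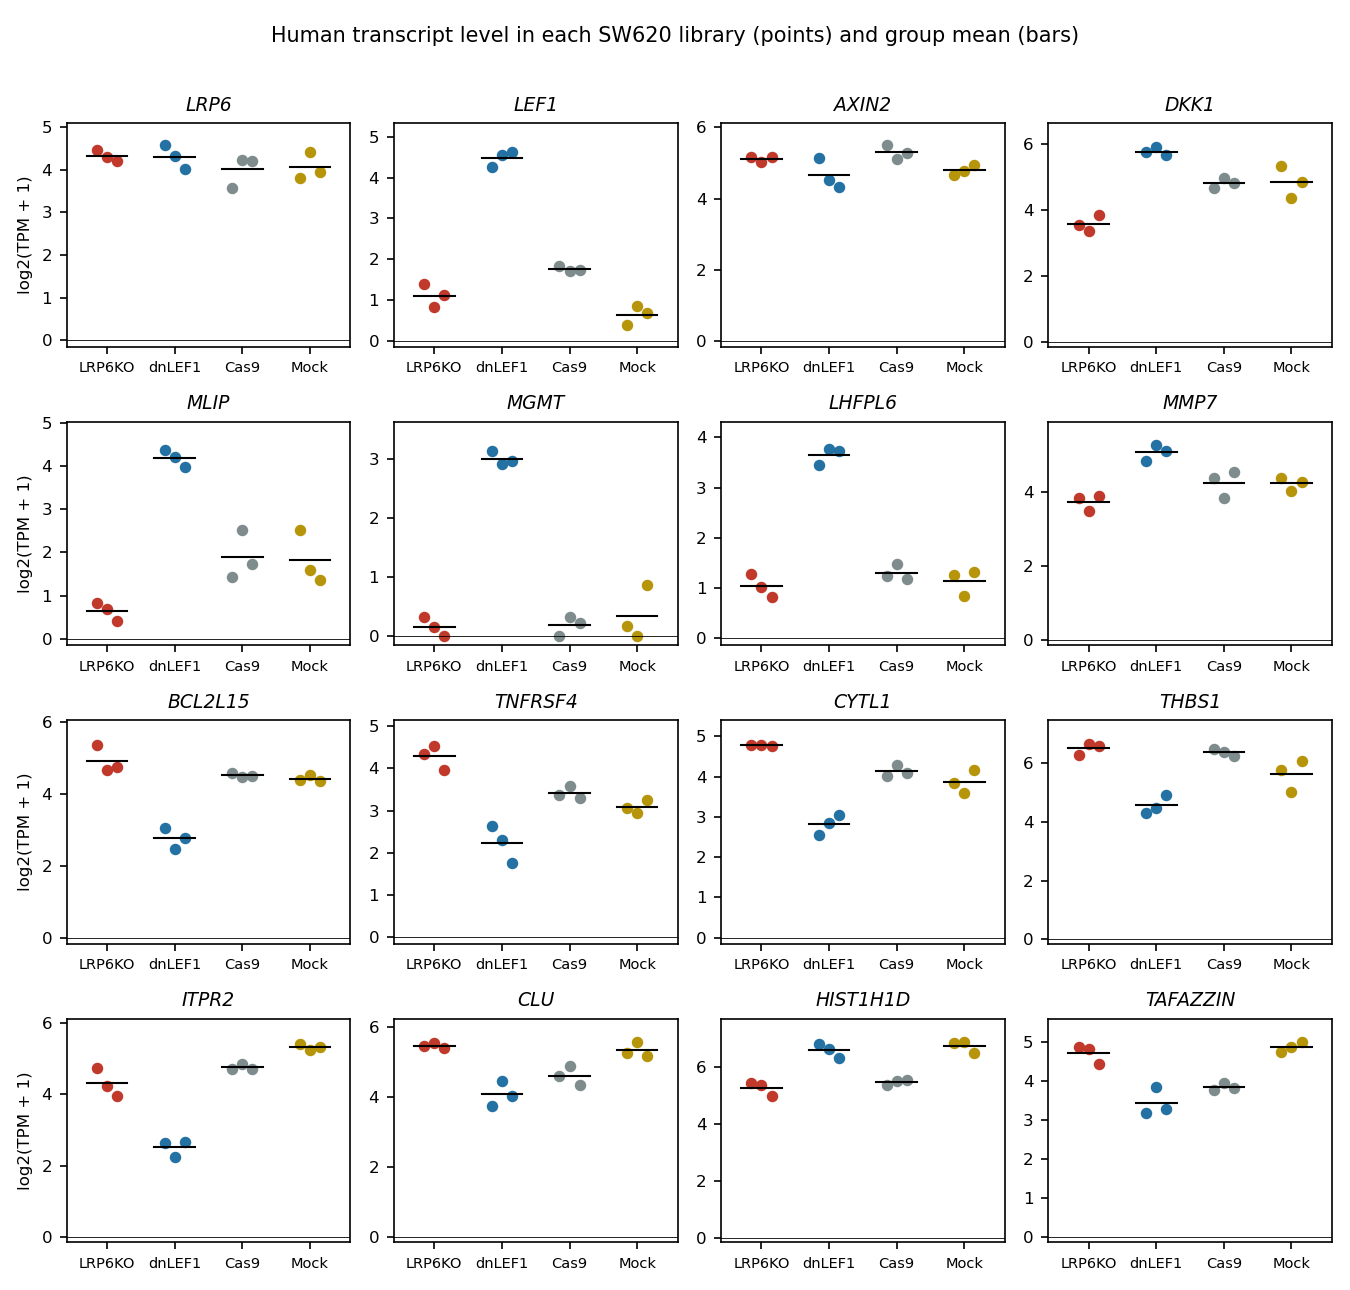
Level of 16 genes as log2(TPM + 1) on the vertical axis in each of the 12 SW620 libraries, with groups LRP6KO, dnLEF1, Cas9 and Mock from left to right, 1 point per library and a bar at the group mean. LRP6 overlaps in all groups, LEF1, MLIP, MGMT and LHFPL6 are high in the dnLEF1 libraries, BCL2L15, TNFRSF4, CYTL1 and ITPR2 are low in them, HIST1H1D follows the delivery arm, and CLU and TAFAZZIN are high in LRP6KO and Mock.

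All 25 genes of the list of Wnt/beta-catenin targets were measured, and DKK1 was the single member called, beside 0.573% of all genes tested. Of the 25, 17 had a difference above 0, as did 13524 of all 19196 genes tested. The median difference over the 25 was 0.221, beside 0.153 over all genes tested. After rescaling it was 0.072, beside 0.02 over all genes, and without LRP6KO replicate 1 it was 0.135, beside 0.08 over all genes. AXIN2, the target most often used as a readout of the pathway, had 34.7, 31.2 and 34.6 TPM in LRP6KO tumours, against 33.98, 21.96 and 19.2 TPM in dnLEF1 tumours. The controls had 44.2, 33.8 and 37.5 TPM in Cas9 and 24.3, 26.1 and 29.7 TPM in Mock tumours. The LRP6KO libraries overlapped with dnLEF1 replicate 1, and the difference of 0.45 (SE 0.19, limma adjusted p 0.375) was not called. The feedback inhibitor NKD1 averaged 131.6 ± 34.4 TPM in LRP6KO and 97.5 ± 43.2 TPM in dnLEF1 tumours, beside 114.3 ± 19.7 TPM in Cas9 and 96.2 ± 20.5 TPM in Mock tumours (SD, n = 3 each), and its difference of 0.48 (SE 0.28, limma adjusted p 0.512) was not called. The receptor ubiquitin ligases RNF43 (-0.06) and ZNRF3 (0.22) and the stem cell receptor LGR5 (-0.31) had limma adjusted p of 0.946, 0.782 and 0.643. RNF43 averaged 20.9 ± 6.91 TPM in LRP6KO and 21.03 ± 1 TPM in dnLEF1 tumours, beside 20.9 ± 5.56 TPM in Cas9 and 18.8 ± 3.101 TPM in Mock tumours (SD, n = 3 each). ZNRF3 averaged 10.8 ± 3.096 TPM in LRP6KO and 9.48 ± 4.53 TPM in dnLEF1 tumours, beside 11.1 ± 0.97 TPM in Cas9 and 9.38 ± 2.46 TPM in Mock tumours (SD, n = 3 each). LGR5 averaged 6.2 ± 1.995 TPM in LRP6KO and 7.69 ± 0.58 TPM in dnLEF1 tumours, beside 7.39 ± 0.66 TPM in Cas9 and 6.53 ± 2.48 TPM in Mock tumours (SD, n = 3 each). The growth regulators MYC (-0.31) and CCND1 (0.06) had limma adjusted p of 0.506 and 0.8445. MYC had 286.01, 202.3 and 294.4 TPM in LRP6KO tumours, against 252.7, 364.9 and 352.4 TPM in dnLEF1 tumours, beside 306.9, 326.1 and 359.6 TPM in Cas9 and 251.6, 197.3 and 280.4 TPM in Mock tumours. CCND1 had 543.9, 564.2 and 517.2 TPM in LRP6KO tumours, against 481.7, 541.9 and 531.1 TPM in dnLEF1 tumours, beside 416.1, 560.3 and 489.1 TPM in Cas9 and 640.4, 582.8 and 509.6 TPM in Mock tumours. LRP6KO and dnLEF1 overlapped in both.

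Of the 4 TCF and LEF factors, LEF1 was called and the others were not: TCF7 differed by 0.38 (SE 0.31), TCF7L1 by -0.08 (SE 0.39) and TCF7L2 by -0.09 (SE 0.21), with limma adjusted p of 0.64, 0.953 and 0.89. TCF7 averaged 5.55 ± 0.56 TPM in LRP6KO and 4.21 ± 1.77 TPM in dnLEF1 tumours, beside 5.71 ± 0.66 TPM in Cas9 and 3.17 ± 1.88 TPM in Mock tumours (SD, n = 3 each). TCF7L1 averaged 2.65 ± 0.53 TPM in LRP6KO and 2.98 ± 1.33 TPM in dnLEF1 tumours, beside 2.46 ± 1.24 TPM in Cas9 and 3.47 ± 2.33 TPM in Mock tumours (SD, n = 3 each). TCF7L2 averaged 18.5 ± 2.26 TPM in LRP6KO and 20.0 ± 4.17 TPM in dnLEF1 tumours, beside 20.8 ± 1.91 TPM in Cas9 and 18.98 ± 5.71 TPM in Mock tumours (SD, n = 3 each). None of 9 measured receptors and co-receptors, of 16 measured parts of the degradation complex and of 15 measured genes of noncanonical Wnt signalling and planar polarity passed, beside 0.573% of all genes tested. At that share, lists this short would seldom hold a called gene. Their list medians were 0.185, -0.003 and 0.11, and 0.055, -0.146 and -0.033 after rescaling. Without LRP6KO replicate 1 they were -0.049, -0.026 and -0.078, so that the medians of the receptors and of the noncanonical genes changed sign. LRP5, the paralog of LRP6, averaged 17.5 ± 3.14 TPM in LRP6KO and 22.7 ± 6.64 TPM in dnLEF1 tumours, beside 17.9 ± 2.81 TPM in Cas9 and 19.9 ± 5.94 TPM in Mock tumours (SD, n = 3 each), and its difference of -0.34 (SE 0.24, limma adjusted p 0.584) was not called.

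Other lists held few called genes. None of 10 measured mesenchymal genes and none of 17 measured epithelial genes passed, and of 15 measured genes of invasion and matrix MMP7 alone did, beside 0.573% of all genes tested. The epithelial list had a median of -0.267 for LRP6KO minus Cas9 and -0.455 for dnLEF1 minus Mock. Over all genes tested these medians were 0.064 and -0.125. In each of these comparisons 3 of the 17 epithelial genes were above 0. Between dnLEF1 and Mock 5 of them were called lower, against 0.698% of all genes tested, and between LRP6KO and Cas9 none was called. The interferon list had the highest median of the 23 lists, 0.465, with 15 of 16 members above 0, beside 13524 of all 19196 genes tested. Of its members 9 had no overlap between LRP6KO and dnLEF1, against 16.3% of all genes tested, and no member was called. MX1, an interferon-induced GTPase, had 17.9, 10.9 and 10.3 TPM in LRP6KO tumours, against 4.13, 4.51 and 5.93 TPM in dnLEF1 tumours. Cas9 tumours had 7.08, 14.5 and 8.9 TPM and Mock tumours 17.1, 18.2 and 6.12 TPM. LRP6KO and dnLEF1 did not overlap, and the difference of 1.23 (SE 0.37, limma adjusted p 0.218) was not called. The list median was 0.157 for LRP6KO minus Cas9 and -0.461 for dnLEF1 minus Mock, and 0.312 for LRP6KO minus dnLEF1 after rescaling and 0.371 without LRP6KO replicate 1. The carcinoma markers had a median of 0.315 (0.153 after rescaling) and the stroma markers, of which 11 of 23 were measured, one of 0.372 (0.287 after rescaling, 0.378 without LRP6KO replicate 1), with no member called in either list. The smooth muscle actin gene ACTA2 had 38.7, 20.8 and 12.04 TPM in LRP6KO tumours, against 7.72, 5.69 and 9.08 TPM in dnLEF1 tumours. Beside these stood 9.99, 20.8 and 9.4 TPM in Cas9 and 12.02, 11.2 and 16.7 TPM in Mock tumours. LRP6KO lay above dnLEF1 without overlap, with the highest value in LRP6KO replicate 1, and the difference of 1.42 (SE 0.38, limma adjusted p 0.164) was not called. In bulk tumours, fewer cells of a type and less RNA per cell cannot be told apart. The injected cells were a human carcinoma line and the host was mouse. Values of stroma markers in the human table therefore do not measure how much stroma a tumour held. The part of mouse reads in them was not tested.

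The mitochondrially encoded genes had the lowest median, -0.301, and all 13 were below 0; after rescaling it was -0.464, and without LRP6KO replicate 1 it was -0.303. MT-ND4L, a subunit of respiratory complex I, was the one member called, beside 0.573% of all genes tested. It had 6839, 6103 and 5351 TPM in LRP6KO tumours, against 12242, 11055 and 8741 TPM in dnLEF1 tumours. In Cas9 tumours it had 9721, 8445 and 8671 TPM, and in Mock tumours 6052, 7155 and 8081 TPM. LRP6KO and Mock overlapped at the lower level and lay below every dnLEF1 and Cas9 library. The difference was -0.8 (SE 0.14, limma adjusted p 0.0239), lost without LRP6KO replicate 2 or 3 or dnLEF1 replicate 1 or 2 (highest adjusted p 0.106). Genes of this kind together took 3.93% to 4.2% of all TPM in LRP6KO, 4.87% to 6.06% in dnLEF1, 4.73% to 5.71% in Cas9 and 3.75% to 4.03% in Mock libraries. This share can also move with the quality of RNA and tissue, and the part of these in the result was not tested. Of 19 nuclear genes of oxidative phosphorylation, COX4I1 was called in the opposite direction (0.5, limma adjusted p 0.0143), a call lost after rescaling and without 4 of the 6 libraries. COX4I1 averaged 638.4 ± 24.1 TPM in LRP6KO and 451.98 ± 13.9 TPM in dnLEF1 tumours, beside 603.4 ± 50.1 TPM in Cas9 and 530.9 ± 28.1 TPM in Mock tumours (SD, n = 3 each). It lies in the stretch chr16:80000001-90000000 described below, where the median level was high in LRP6KO and Cas9 and low in dnLEF1 and Mock.

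**Figure D3:**
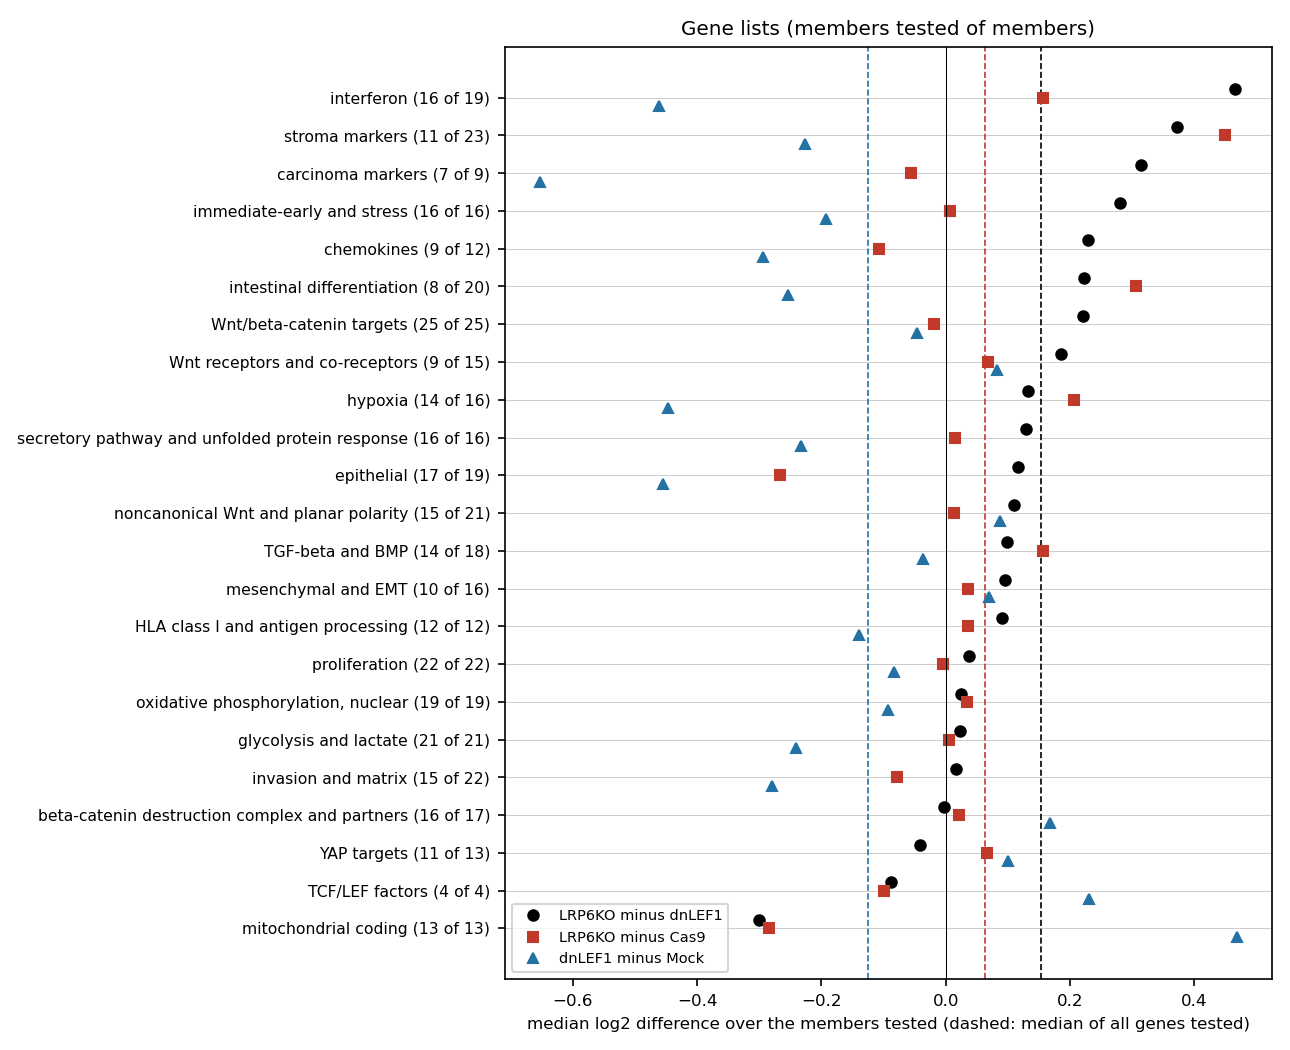
Median log2 difference over the measured members of 23 gene lists (rows, with members tested of all members), for LRP6KO minus dnLEF1 (black circles), LRP6KO minus Cas9 (red squares) and dnLEF1 minus Mock (blue triangles); dashed lines mark the medians of all genes tested at 0.153, 0.064 and -0.125. Black circles run between -0.301 for mitochondrial coding genes and 0.465 for the interferon list.

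When each disruption was read from the control of its own delivery arm, 58 genes (0.302% of those tested) differed in their change, 43 of them (0.224%) higher and 15 (0.0781%) lower in LRP6KO. The count was 12, 107 and 24 without Cas9 replicate 1, 2 and 3, 38 without LRP6KO replicate 2 and 35 without dnLEF1 replicate 2. After rescaling it was again 58, with 24 higher and 34 lower, 36 of which were among the first 58. LEF1 (-4.5), MLIP (-3.61), LHFPL6 (-2.77), MGMT (-2.69) and DKK1 (-2.15) were called lower. SLC43A3, a transporter of nucleobases (-1.81, limma adjusted p 0.0247), and CLDN3, a tight junction claudin (-1.65, limma adjusted p 0.0246), were called in this comparison without being called between LRP6KO and dnLEF1 directly. SLC43A3 had 73.6, 74.3 and 95.8 TPM in LRP6KO tumours, against 129.2, 156.8 and 150.6 TPM in dnLEF1 tumours. The controls had 122.2, 75.6 and 127.9 TPM in Cas9 and 47.4, 47.7 and 68 TPM in Mock tumours. CLDN3 had 6.53, 8.06 and 7.33 TPM in LRP6KO tumours, against 13.7, 14.8 and 12.97 TPM in dnLEF1 tumours. Cas9 tumours had 16.2, 9.88 and 14.8 TPM and Mock tumours 6.09, 7.61 and 7.94 TPM. In both genes Cas9 lay above Mock without overlap, by 0.97 for SLC43A3 (limma adjusted p 0.14) and 0.81 for CLDN3 (limma adjusted p 0.151), neither of them called. On the higher side, KRT19, a keratin of the carcinoma marker sum given above, was called (1.02, limma adjusted p 0.0129); it averaged 1748 ± 49.95 TPM in LRP6KO and 1263 ± 57.7 TPM in dnLEF1 tumours, beside 1609 ± 216.6 TPM in Cas9 and 2353 ± 221.4 TPM in Mock tumours (SD, n = 3 each).

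In most called genes the dnLEF1 libraries stood apart from all others. Among the 110, all 3 dnLEF1 libraries lay on one side of the other 9 in 85 genes (77.3%), against 677 of all 19196 genes tested (3.53%). These genes were measured in the same libraries and are not independent, so no interval is given for the share. All 3 LRP6KO libraries did so in 24 (21.8%), against 240 of all genes (1.25%), and a gene can count in more than 1 pattern. Called genes must separate LRP6KO from dnLEF1, which raises each of these shares, so they describe the called genes and test nothing. LRP6KO tumours differed from Cas9 tumours in 1 gene (0.00521%), and dnLEF1 tumours differed from Mock tumours in 171 (0.891%), 37 (0.193%) higher and 134 (0.698%) lower in dnLEF1. At an unadjusted p under 0.05 the counts were 1111 and 2684. The count of 171 became 76 after rescaling, 37 higher and 39 lower, 405 with array weights, 38 with all 6 xenograft groups in the fit and 74 with no filter on low values. It was 49, 43 and 43 without dnLEF1 replicate 1, 2 and 3, 63, 39 and 77 without Mock replicate 1, 2 and 3, 89 without Cas9 replicate 3 and 112 without LRP6KO replicate 2. The median SD over genes was 0.291 in LRP6KO, 0.241 in dnLEF1, 0.23 in Cas9 and 0.241 in Mock libraries.

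The gene called in both of these comparisons was CALB1, a calcium-binding protein. It had 30.2, 27.04 and 39.05 TPM in LRP6KO tumours and 24.6, 25.3 and 31.4 TPM in dnLEF1 tumours, against 99.7, 89.4 and 103.2 TPM in Cas9 and 71.6, 62.2 and 64.03 TPM in Mock tumours. Both disruptions lay below every control library and overlapped each other. CALB1 fell by 1.59 in LRP6KO against Cas9 (SE 0.15, limma adjusted p 0.00334) and by 1.26 in dnLEF1 against Mock (SE 0.15, limma adjusted p 0.00287). LRP6KO and dnLEF1 differed by 0.23 (SE 0.15, limma adjusted p 0.545), which was not called. KRT23, an epithelial keratin, and IL20RA, a subunit of cytokine receptors, were below their own control without overlap in both disruptions. KRT23 averaged 46.6 ± 2.49 TPM in LRP6KO and 25.4 ± 4.54 TPM in dnLEF1 tumours, beside 81.96 ± 5.22 TPM in Cas9 and 55.5 ± 8.24 TPM in Mock tumours (SD, n = 3 each), with a direct difference of 0.86, limma adjusted p 0.0197. IL20RA averaged 27.3 ± 2.99 TPM in LRP6KO and 12.9 ± 3.63 TPM in dnLEF1 tumours, beside 50.4 ± 4.21 TPM in Cas9 and 41.1 ± 2.52 TPM in Mock tumours (SD, n = 3 each), with a direct difference of 1.06, limma adjusted p 0.0231. Both direct calls were lost after rescaling, and without 5 and 4 of the 6 libraries. In both genes dnLEF1 fell against Mock, by 1.1 and 1.64 (limma adjusted p 0.00575 and 0.00205), while LRP6KO minus Cas9 was -0.8 and -0.86 and not called (limma adjusted p 0.155 and 0.268). These 3 genes were chosen after their values were seen.

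Without overlap with the own control in both disruptions, 105 genes (0.547% of those tested) were lower in both and 43 (0.224%) higher in both. Another 237 (1.235%) were higher in LRP6KO and lower in dnLEF1, and 88 (0.458%) the reverse. The median over all genes tested was 0.064 for LRP6KO minus Cas9 and -0.125 for dnLEF1 minus Mock, and the part of these offsets in the counts was not tested. Of all genes tested, 10.6% had no overlap between LRP6KO and Cas9, and 22.8% had none between dnLEF1 and Mock. With shares of this size, unrelated disruptions would also place genes in each of these classes. The counts therefore describe the genes and do not show a shared response. Among those higher in both were CDKN1A, a cell cycle inhibitor, and WWC1, a regulator of the Hippo pathway, both named after their values were seen. CDKN1A averaged 12.4 ± 1.11 TPM in LRP6KO and 9.15 ± 0.64 TPM in dnLEF1 tumours, beside 8.26 ± 2.03 TPM in Cas9 and 5.76 ± 1.45 TPM in Mock tumours (SD, n = 3 each), and WWC1 averaged 7.65 ± 0.64 TPM in LRP6KO and 7.82 ± 1.06 TPM in dnLEF1 tumours, beside 4.85 ± 0.69 TPM in Cas9 and 4.99 ± 0.65 TPM in Mock tumours (SD, n = 3 each). For either gene neither difference from the own control was called, with limma adjusted p of 0.731 and 0.643 for LRP6KO minus Cas9 and 0.208 and 0.178 for dnLEF1 minus Mock. Over all genes tested these differences, which share no library, had a Spearman correlation of -0.151 across genes, and 41.4% of genes had the same sign in both. Genes are not independent replicates, and the correlation was 0.004 without LRP6KO replicate 1. Of the 171 genes called between dnLEF1 and Mock, 63 (36.8%) had the same sign between LRP6KO and Cas9.

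**Figure D4:**
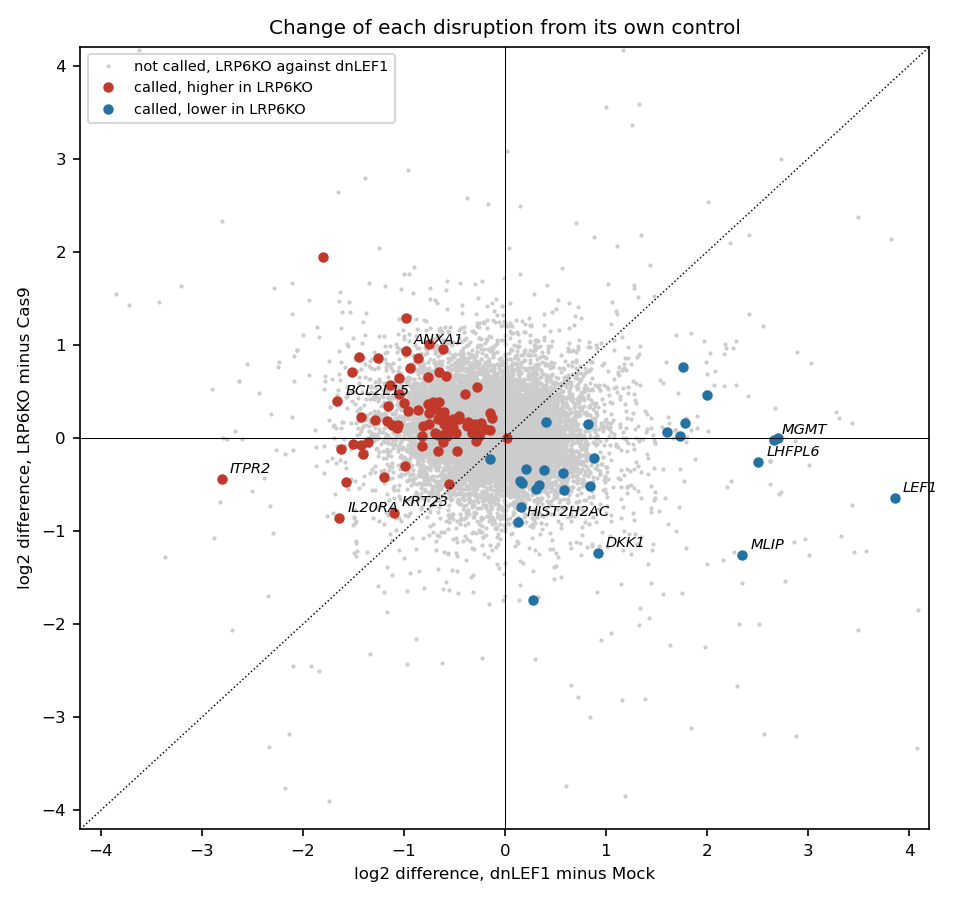
Each point is 1 gene, with its log2 difference dnLEF1 minus Mock on the horizontal axis and LRP6KO minus Cas9 on the vertical axis; red and blue points are the genes called higher and lower in LRP6KO than in dnLEF1, the dotted line marks equal changes, and 16 genes lie outside the axes. MGMT and LHFPL6 lie to the right, at 2.66 and 2.51, close to 0 on the vertical axis, and DKK1 lies below and to the right of the origin.

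A smaller set of called genes followed the delivery arm. LRP6KO and Cas9 lay on one side and dnLEF1 and Mock on the other in 20 of the 110 called genes (18.2%), against 107 of all genes tested (0.557%). DPEP1 (chr16:89613308-89638456, + strand), a membrane dipeptidase, had 19.7, 17.3 and 17.1 TPM in LRP6KO tumours, against 7.14, 6.99 and 9.73 TPM in dnLEF1 tumours. Levels were 24.2, 26.8 and 26.4 TPM in Cas9 and 11.6, 10.7 and 14.01 TPM in Mock tumours. The control arms differed by 1.04 (Cas9 minus Mock, limma adjusted p 0.0391) and the disrupted ones by 1.1 (SE 0.16, limma adjusted p 0.0107), leaving a difference of changes of 0.06 (limma adjusted p 0.927). The direct call was lost without LRP6KO replicate 1 or dnLEF1 replicate 2 (highest adjusted p 0.0656) and with the SW480 libraries in the fit. Cas9 and Mock differed in 14 genes (0.0729%), 2 (0.0104%) higher and 12 (0.0625%) lower in Cas9, while 15.7% of all genes had no overlap between these groups. By limma the count was 0 without Cas9 replicate 1 or 3, beside 1820 genes at an unadjusted p under 0.05 with all libraries, and with any other single library left out it was 1 to 23, the highest without dnLEF1 replicate 1; with array weights it was 124.

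In 13 of the 110 genes (11.8%), against 182 of all genes (0.948%), LRP6KO and Mock lay on one side and dnLEF1 and Cas9 on the other, a pattern looked for after the data were seen. CLU (chr8:27596917-27615031, - strand), a secreted chaperone, had 42.5, 45.3 and 41.2 TPM in LRP6KO tumours, against 12.3, 21.04 and 15.2 TPM in dnLEF1 tumours. The controls had 23.4, 28.2 and 19.1 TPM in Cas9 and 37.4, 46.2 and 35.05 TPM in Mock tumours. LRP6KO overlapped with Mock, and dnLEF1 with Cas9. The direct difference was 1.39 (SE 0.19, limma adjusted p 0.0102) and the difference of changes 2.12 (SE 0.27, limma adjusted p 0.0127). ANXA1 (chr9:73151757-73170393, + strand), a regulator of inflammation that binds membranes, had 51.2, 55.1 and 63.3 TPM in LRP6KO tumours, against 23.3, 28.2 and 30.9 TPM in dnLEF1 tumours. Cas9 tumours had 26.3, 28.2 and 32.6 TPM and Mock tumours 60.99, 53.8 and 50.2 TPM. The direct difference was 1.02 (SE 0.14, limma adjusted p 0.00952), the control arms differed by -0.9 (limma adjusted p 0.0498), and the difference of changes was 1.92 (SE 0.2, limma adjusted p 0.00569). TAFAZZIN (chrX:154411518-154421726, + strand), listed under the older symbol TAZ and a remodeller of mitochondrial cardiolipin, had 28.6, 27.4 and 20.9 TPM in LRP6KO tumours, against 8.01, 13.5 and 8.76 TPM in dnLEF1 tumours. Beside these stood 12.6, 14.6 and 13.1 TPM in Cas9 and 26.01, 28.6 and 31 TPM in Mock tumours. The direct difference of 1.28 (SE 0.19, limma adjusted p 0.0121) was lost without LRP6KO replicate 1 or 2 or dnLEF1 replicate 3 (highest adjusted p 0.0572). The direct calls of ANXA1 and TAFAZZIN were also lost with the SW480 libraries in the fit.

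The arm pattern and the crossed pattern were also seen in stretches of chromosome. Genes with a mean of at least 5 TPM were placed in windows of 10 Mb (GRCh38, GENCODE release 29), and 275 windows held at least 10 of them. The median difference of the windows, LRP6KO minus dnLEF1, had quartiles of 0.083 and 0.16. The highest median, 0.497, was that of the 63 genes at chr16:80000001-90000000, near the end of the long arm, where 54 genes were above the overall median of 0.121. In this window 8 genes, among them TUBB3, APRT, DPEP1 and COX4I1, were called higher, against 0.432% of all genes tested. Windows were ranked by this same difference, so such counts describe the windows and test nothing. APRT averaged 421 ± 34.7 TPM in LRP6KO and 260.4 ± 11.2 TPM in dnLEF1 tumours, beside 377.3 ± 32.4 TPM in Cas9 and 307 ± 12.2 TPM in Mock tumours (SD, n = 3 each). Relative to the mean of the 12 libraries, the window's median level was 0.307, 0.231 and 0.127 in LRP6KO and -0.179, -0.294 and -0.267 in dnLEF1 libraries, beside 0.139, 0.296 and 0.147 in Cas9 and -0.268, -0.141 and -0.091 in Mock libraries. LRP6KO and Cas9 were high and dnLEF1 and Mock low without overlap, and the median difference of changes in the window was 0.137, beside 0.184 over all genes. TUBB3, a tubulin typical of neurons, had 142.96, 141.4 and 116.5 TPM in LRP6KO tumours, against 55.4, 61.2 and 73.2 TPM in dnLEF1 tumours. In Cas9 tumours it had 123.2, 149.9 and 113.4 TPM, and in Mock tumours 102.5, 95.01 and 109.2 TPM. The arms did not overlap, and the difference was 1.07 (SE 0.14, limma adjusted p 0.00551).

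The next window by the same ranking was chrX:150000001-160000000, with a median of 0.484 over 46 genes, 44 of them above the overall median. It held 3 genes called higher, IKBKG, TAFAZZIN and FAM50A, against 0.432% of all genes tested. Its median level was 0.32, 0.278 and 0.196 in LRP6KO and -0.364, -0.163 and -0.246 in dnLEF1 libraries, beside -0.355, -0.136 and -0.303 in Cas9 and 0.102, 0.263 and 0.219 in Mock libraries. Here LRP6KO and Mock were high and dnLEF1 and Cas9 low without overlap, and the median difference of changes was 0.969. IKBKG, the regulatory subunit of the kinase that activates NF-kappa-B, was called at 0.9 (SE 0.12, limma adjusted p 0.00837) but shares sequence with a pseudogene copy. IKBKG averaged 32.98 ± 1.87 TPM in LRP6KO and 17.2 ± 1.05 TPM in dnLEF1 tumours, beside 25.5 ± 2.897 TPM in Cas9 and 29.8 ± 2.29 TPM in Mock tumours (SD, n = 3 each). FAM50A was called at 0.84 (SE 0.15, limma adjusted p 0.0346), a call lost without any 1 of the 6 libraries. FAM50A averaged 65.8 ± 6.65 TPM in LRP6KO and 36.5 ± 5.31 TPM in dnLEF1 tumours, beside 38.4 ± 1.81 TPM in Cas9 and 71.2 ± 13.6 TPM in Mock tumours (SD, n = 3 each). The third highest was chr16:40000001-50000000 (0.367, 12 genes) with no gene called. The lowest medians were those of chr9:1-10000000 (-0.28, 17 genes), chr9:20000001-30000000 (-0.225, 10 genes) and chr13:20000001-30000000 (-0.223, 20 genes), again with no gene called. In both windows of chromosome 9 the LRP6KO libraries lay below all other 9. After rescaling, the highest medians were 0.348 and 0.324 and the lowest -0.432, and without LRP6KO replicate 1 these windows had 0.445, 0.443 and -0.238. Transcript levels do not measure copy number, and its part in these windows was not tested.

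**Figure D5:**
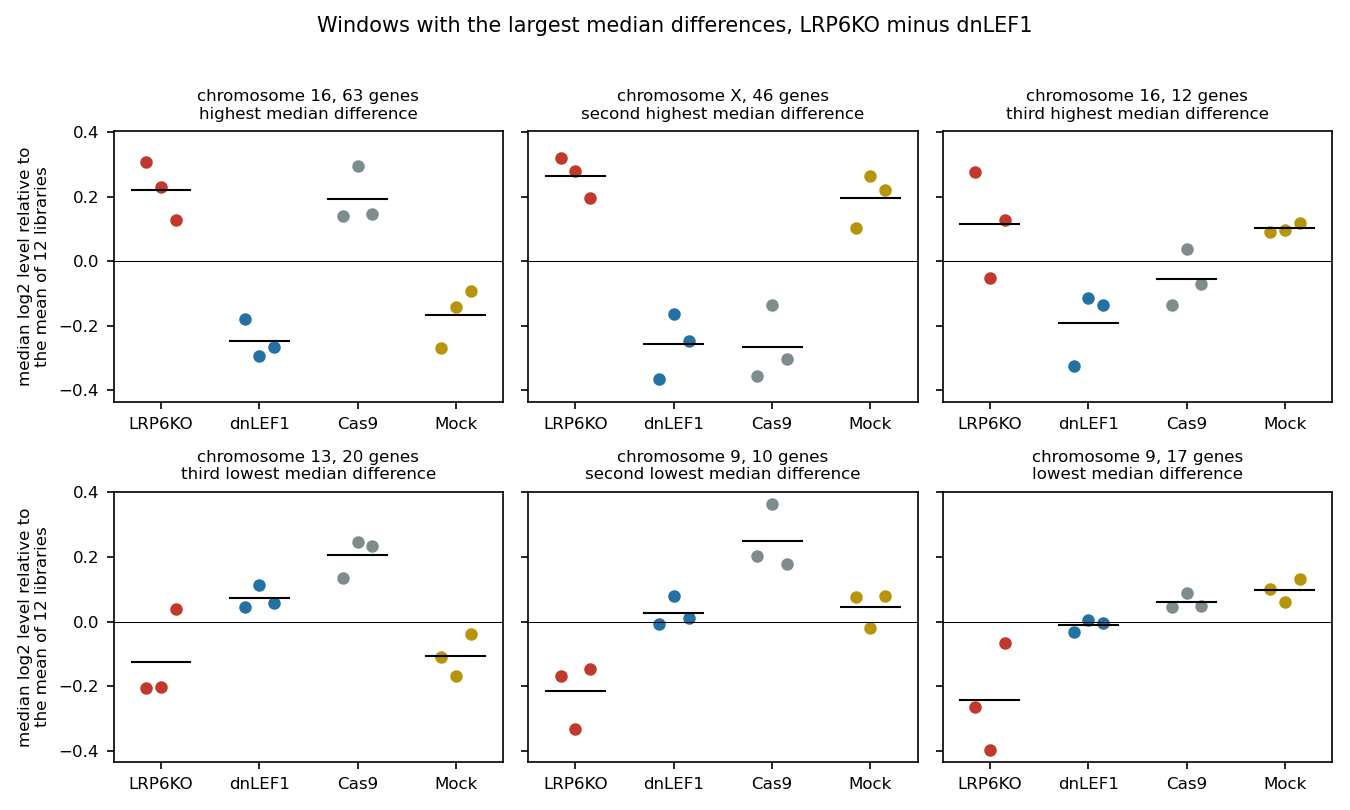
Median level of the genes in 6 chromosome windows, as log2 relative to the mean of the 12 libraries (vertical axis), with groups LRP6KO, dnLEF1, Cas9 and Mock from left to right, 1 point per library and a bar at the group mean. In the first panel, on chromosome 16, LRP6KO and Cas9 are above 0 and dnLEF1 and Mock below it; in the second, on chromosome X, LRP6KO and Mock are above 0 and dnLEF1 and Cas9 below it.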

How the data were processed

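RNA of caecal xenograft tumours was made into Smart-seq2 libraries, per the labels' protocols. Per the submitters' processing notes, which give no roles, the tools were Trimmomatic 0.35, Bowtie 1.2 and RSEM 1.2.31 and the builds hg38 and mm10. The authors deposited TPM per human gene, 1 column per library; how mouse reads were kept out of the human table is not given in the sources used here, and the mouse table was not used here. TPM keep no depth, so no interval for single values can be given. Smart-seq2 does not mark strand, so reads of antisense neighbours cannot be told apart.

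Identifiers were named from GENCODE release 29 (58216 of 58336 matched). The 12 SW620 libraries, grouped by their labels, were fitted together on log2(TPM + 1) with limma 3.58.1 (intensity trend, R 4.3.3), after a filter of at least 1 TPM in at least 3 libraries; p-values are two-sided and Benjamini-Hochberg adjusted over all 19196 genes. Differences on this scale understate changes of low genes. SW480 libraries were kept out because they vary more, and enter as an alternative. Named genes were the 12 largest called differences each way whose higher group averaged 5 TPM or more, without overlap of libraries, the 6 largest each way in the difference of changes, up to 3 members per list by p, and 12 Wnt genes; others are named in the text as chosen later or stand for a group. The members and lists were chosen with earlier results of these data known. Alternatives were another pseudocount (0.1), no filter, median-ratio scaling, all 6 xenograft groups, array weights, a replicate block, the compared libraries alone and each library left out. Promoter sequences come from RefSeq (GRCh38.p14).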

Additional observations from a re-analysis of the deposited data

How the results depend on the processing

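The 110 calls between LRP6KO and dnLEF1 became 66 with no filter on low values, 33 with all 6 xenograft groups in the fit and 14 with the LRP6KO and dnLEF1 libraries alone; leaving out single LRP6KO or dnLEF1 libraries gave 33 to 69, single Cas9 or Mock libraries 71 to 105, and rescaling without LRP6KO replicate 1, an alternative chosen after seeing the data, gave 33. The 58 calls for the difference of changes became 33 with no filter, 16 with all 6 groups, 194 with array weights and 30 with rescaling without LRP6KO replicate 1, and ranged from 12 to 107 with single libraries left out. The 14 calls between Cas9 and Mock became 0 with no filter, 0 with all 6 groups, 3 with rescaling, 124 with array weights, 3 with the replicate block and 5 with the Cas9 and Mock libraries alone, and ranged from 0 to 5 with their own libraries left out; at an unadjusted p under 0.05 limma had 1820 genes in the fit reported. The share of called genes with dnLEF1 apart, 77.3%, became 84.8% with all 6 groups, 64.3% with the LRP6KO and dnLEF1 libraries alone and 87.9% with rescaling without LRP6KO replicate 1, and was 78.3% to 90.9% with single LRP6KO or dnLEF1 libraries left out. Some settings also differ in the number of samples or of genes tested, and the cause of these shifts was not tested.

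Of the 29 called genes that the naming rules chose, none changed direction under any of these settings; 28 were called with the pseudocount of 0.1, 29 with array weights, 27 after rescaling, 24 with no filter, 18 with all 6 groups, 9 with the LRP6KO and dnLEF1 libraries alone and 19 to 24 with single libraries of these groups left out. Rescaling moved 9 list medians beyond the spread between replicates. Replicate numbers did not pair the samples: libraries with the same number in LRP6KO and dnLEF1 had deviations correlated at -0.006, -0.029 and -0.06. With the replicate block, 74 genes were called between LRP6KO and dnLEF1, 47 for the difference of changes and 26 of the 29 named genes. Depth is unknown, so differences among genes near 1 TPM cannot be weighed by their counts.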
